A study of Mus musculus with 10 samples.

Results

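The genes described here make or regulate red blood cells, and they were measured in whole thymus, an organ whose main cells are developing T cells. They are 9 of the 35375 features in the count table. The adult globin genes Hba-a1, Hba-a2, Hbb-bs and Hbb-bt, together with Alas2, Slc4a1 and Klf1, were taken for their function. Ank1 and Ermap were taken because their counts jumped within the homozygous KO group, so the homozygous KO values chose these 2 genes and are given for them without a test. All 9 were among the 19511 features with enough counts to be tested.

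The libraries came from total RNA of the thymus of 10 C57BL/6J mice, collected 3 days after birth. Usp7, which encodes a deubiquitinating enzyme (USP7, also called HAUSP), had lost 1 allele (heterozygous KO, n = 3) or both alleles (homozygous KO, n = 3) in blood-forming cells, and 4 mice were wild type. The design states that cre had been induced in 2 of the wild types and not in the other 2, without saying which. The count columns of wild types 3 and 4 carry the words wt and het in their names while their titles say wild type, and those of wild types 1 and 2 carry wt in both places. The titles were followed, so every wild-type value rests on them, and values with either pair alone are given where they differ. The promoter that drives cre and the deleted part of the gene are not given in the sources used here.

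Usp7 itself fell from 633 ± 47.2 CPM (SD, n = 4; CPM are read counts scaled by TMM to a common library size) in wild type to 377 ± 65.1 CPM (SD, n = 3) in homozygous KO, and the heterozygous KO lay between them at 501 ± 25.4 CPM (SD, n = 3). Markers of thymocytes (Cd3e, Cd4, Cd8a, Rag1 and 10 others) summed to between 13800 and 17100 CPM in every library, while the 4 globin genes took 0.0195% to 0.207% of all counts. Markers of the labelled tissue were thus present throughout, and globin counts were a small share of each library. Library totals ran from 39.8 to 122 M counts, so that 3 counts, the upper limit that a count of 0 allows, equal 0.026 to 0.0737 CPM. Such limits cover counting error only.

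Red cells arise from hematopoietic progenitors that pass through nucleated erythroblast stages, lose their nucleus and enter the blood as reticulocytes. Klf1 and Gata1 encode transcription factors that switch on the genes of this lineage. Globin messages are very stable and persist in reticulocytes, whereas the messages of transcription factors are found in nucleated precursors. In bulk tissue, a change in the number of red cells and a change in RNA per cell cannot be told apart.

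The upstream sequences of the genes are shown first, since several of these genes are known targets of the erythroid factors GATA1 and KLF1. The set of RefSeq upstream sequences used here held an entry for 7 of the 9 genes, and none for Slc4a1 and Ank1. Each run below holds the 220 bases before the annotated start, 5′ to 3′ in the direction of transcription. Capitals mark the GATA motif (AGATAA or TGATAA) and the CACC box bound by KLF1 (CCNCNCCC), each searched on both strands.
Klf1, GRCm38.p6 chr8:84901762-84901981, plus strand: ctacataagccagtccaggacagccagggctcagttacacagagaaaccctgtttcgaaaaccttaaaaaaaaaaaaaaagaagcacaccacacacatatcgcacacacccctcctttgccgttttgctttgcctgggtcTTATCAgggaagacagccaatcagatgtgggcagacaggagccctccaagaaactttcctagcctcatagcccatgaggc
Ermap, GRCm38.p6 chr4:119189996-119190215, minus strand: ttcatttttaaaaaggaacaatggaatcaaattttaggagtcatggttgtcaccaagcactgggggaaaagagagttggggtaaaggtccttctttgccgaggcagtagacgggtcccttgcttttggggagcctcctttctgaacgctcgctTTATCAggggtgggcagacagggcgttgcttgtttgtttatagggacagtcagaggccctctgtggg
Alas2, GRCm38.p6 chrX:150547197-150547416, plus strand: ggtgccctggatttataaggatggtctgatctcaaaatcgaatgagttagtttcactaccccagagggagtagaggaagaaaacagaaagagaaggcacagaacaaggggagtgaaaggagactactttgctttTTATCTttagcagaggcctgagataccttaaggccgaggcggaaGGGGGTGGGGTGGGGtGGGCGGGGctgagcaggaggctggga
Hbb-bs, GRCm38.p6 chr7:103827929-103828148, minus strand: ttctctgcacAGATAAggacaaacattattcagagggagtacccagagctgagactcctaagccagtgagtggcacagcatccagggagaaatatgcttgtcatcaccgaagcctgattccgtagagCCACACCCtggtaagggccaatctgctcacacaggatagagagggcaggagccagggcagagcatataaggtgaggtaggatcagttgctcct
Hbb-bt, GRCm38.p6 chr7:103813924-103814143, minus strand: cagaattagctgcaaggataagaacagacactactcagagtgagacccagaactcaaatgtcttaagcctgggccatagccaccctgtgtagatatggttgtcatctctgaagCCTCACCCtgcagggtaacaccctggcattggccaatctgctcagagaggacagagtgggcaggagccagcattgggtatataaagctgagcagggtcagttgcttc
Hba-a2, GRCm38.p6 chr11:32296272-32296491, plus strand: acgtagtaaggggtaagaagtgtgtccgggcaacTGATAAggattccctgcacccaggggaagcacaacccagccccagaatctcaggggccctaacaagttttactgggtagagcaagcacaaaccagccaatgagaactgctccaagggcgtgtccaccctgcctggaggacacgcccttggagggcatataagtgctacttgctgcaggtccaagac

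Within 250 bases upstream, 6 of the 7 genes held a GATA motif, and Hbb-bt was the one without. Of all 32851 upstream regions of this length, 16.6% held it. The CACC box was present in Hbb-bs, Hbb-bt and Alas2, 3 of 7, against 45.9% of all regions. In Alas2 it matched 4 times, and all but the match nearest the start overlapped a neighbour. In Klf1 and Ermap the GATA motif lay on the reverse strand, 75 to 80 and 62 to 67 bases before the start. The 2 alpha-globin regions were the same over all 247 bases compared once shifted by 3 bases, so only the Hba-a2 sequence is printed. An E-box (CANNTG) was found in 5 of the 7 against 66.2% of all regions, and CCAAT in 6 against 33.8%. These are matches of letters and say nothing on their own about binding.

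The globin genes come in near-identical pairs, which bears on how their counts can be read. Over the 429 bases of the coding sequence Hba-a1 and Hba-a2 differed at 1 position, with an identical run of 380 bases. Hbb-bs and Hbb-bt differed at 1 of 444 coding positions, with an identical run of 416 bases. The coding stretches that end at the differing base, from GENCODE transcripts, are shown with that base in capitals (coding bases 322 to 381 for the alpha pair, 358 to 417 for the beta pair).
Hba-a1: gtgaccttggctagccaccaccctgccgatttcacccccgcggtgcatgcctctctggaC
Hba-a2: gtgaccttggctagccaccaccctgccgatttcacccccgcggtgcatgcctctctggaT
Hbb-bs: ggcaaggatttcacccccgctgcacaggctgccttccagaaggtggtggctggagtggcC
Hbb-bt: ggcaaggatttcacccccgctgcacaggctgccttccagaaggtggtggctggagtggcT
A read from the shared stretches cannot be placed in 1 gene of a pair by sequence, so the split of counts within each pair is uncertain. Upstream, the beta pair shared only 127 of 249 aligned bases.

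The alpha-globin subunit is encoded by Hba-a1 (ENSMUSG00000069919) and Hba-a2 (ENSMUSG00000069917) on chromosome 11. Hba-a1 stood at 90.7, 264, 303 and 478 CPM in the wild types, at 50.5, 150 and 149 CPM in heterozygous KO, and at 508, 561 and 60.4 CPM in homozygous KO. Homozygous KO 1 and 2 were the highest of the 10 libraries, and homozygous KO 3 was the second lowest. Hba-a2 had 33.5, 89.3, 114 and 164 CPM in wild type, 18.6, 60 and 56.3 CPM in heterozygous KO, and 203, 226 and 27.5 CPM in homozygous KO. The order was nearly that of Hba-a1, and all groups overlapped.

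The beta-globin subunit is encoded by Hbb-bs (ENSMUSG00000052305) and Hbb-bt (ENSMUSG00000073940) on chromosome 7. Hbb-bs had 183, 534, 620 and 1000 CPM in wild type, 103, 316 and 312 CPM in heterozygous KO, and 970, 1140 and 106 CPM in homozygous KO. Hbb-bt had 32.5, 94.2, 122 and 159 CPM in wild type, 17.9, 54.3 and 51.5 CPM in heterozygous KO, and 249, 256 and 27.2 CPM in homozygous KO. Wild type 4 exceeded homozygous KO 1 for Hbb-bs but not for Hbb-bt. The embryonic genes of these clusters were at or near 0: Hbb-bh2 had no count in any library, Hbb-bh1 had at most 3, Hba-x did not exceed 0.0347 CPM, and Hbb-y, at 0 in every wild type, did not exceed 0.12 CPM.

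Alas2 (ENSMUSG00000025270, chromosome X) encodes the erythroid form of the first enzyme of haem synthesis. Its levels were 11.4, 30.9, 29.8 and 47.3 CPM in wild type, 8.72, 15.7 and 15.3 CPM in heterozygous KO, and 60.1, 64.3 and 7.07 CPM in homozygous KO. Homozygous KO 3 was here the lowest of all 10 libraries. The annotation of GRCm38 places Apex2 across Alas2 on the opposite strand, and the sources used here do not say whether counting used strand, so a share of reads from Apex2 was not tested.

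Spread between animals was the first feature of these 5 genes. The highest library exceeded the lowest within a group by 4.16-fold to 5.48-fold in wild type, 1.8-fold to 3.22-fold in heterozygous KO, and 8.23-fold to 10.7-fold in homozygous KO. In homozygous KO the SD of their log2 CPM ranked at the 99.5 to 99.6 percentile of the tested genes, and the median over all tested genes was 0.2. Wild type was also variable, at the 92.5 to 95.4 percentile.

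**Figure D1:**
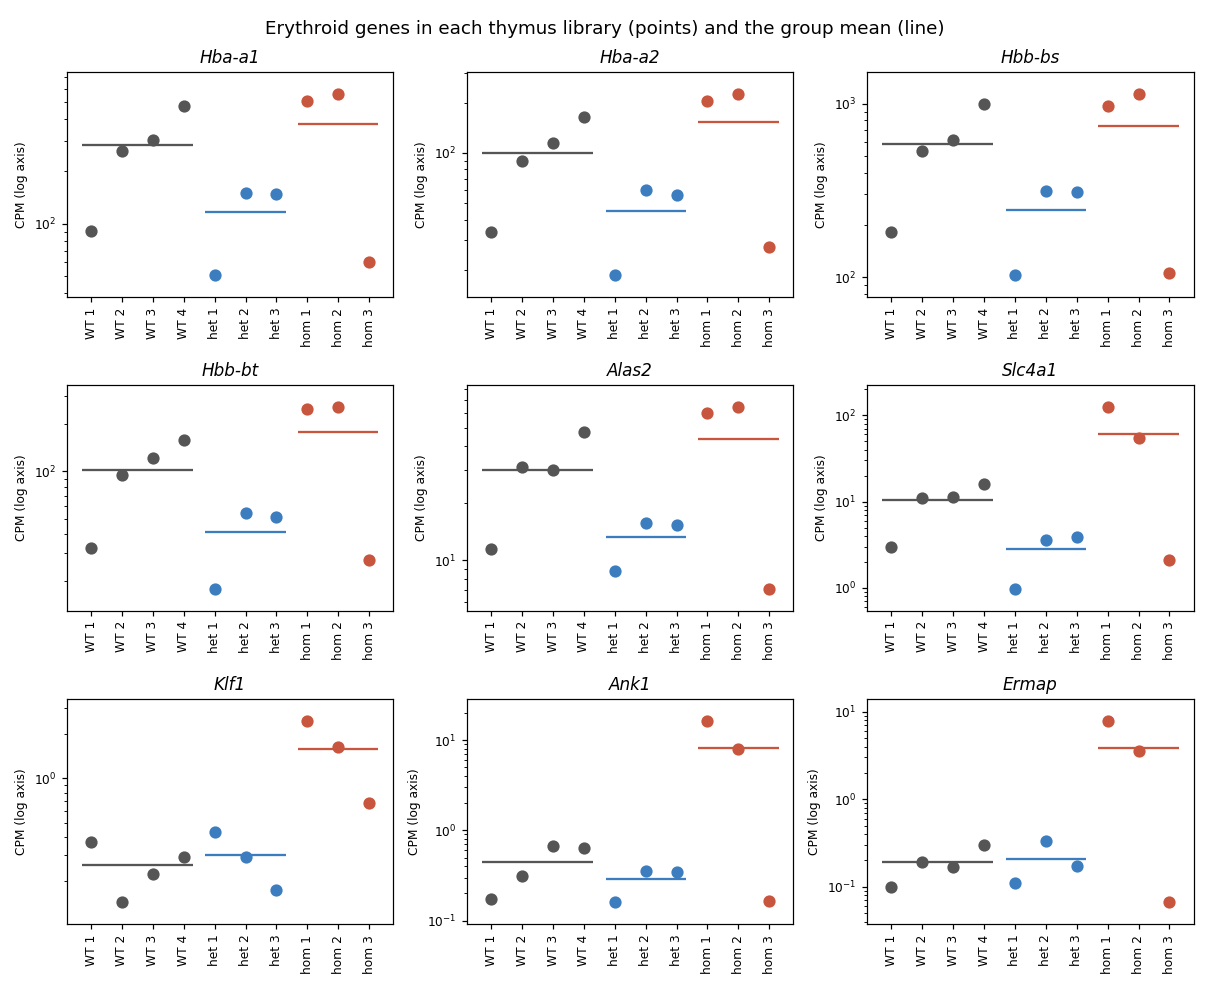
Expression (CPM, log axis) of the 9 erythroid genes in each of the 10 thymus libraries, with the arithmetic mean of each group as a line; WT, het and hom stand for wild type, heterozygous KO and homozygous KO. Homozygous KO 3 lies with the lowest libraries for the 4 globin genes and Alas2 and above all 7 control and heterozygous libraries for Klf1, at 0.676 CPM.

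Klf1 (ENSMUSG00000054191, chromosome 8) encodes the erythroid Krüppel-like transcription factor. It had 15, 6, 20 and 24 counts in the wild types, or 0.368, 0.144, 0.225 and 0.29 CPM. The heterozygous KO libraries had 43, 28 and 16 counts, or 0.43, 0.293 and 0.174 CPM. The homozygous KO libraries had 284, 167 and 61 counts, or 2.46, 1.63 and 0.676 CPM. Every homozygous KO library was above every other library, and wild type and heterozygous KO overlapped. How many of all features separate in this way was not counted, so the separation is a description.

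Slc4a1 (ENSMUSG00000006574, chromosome 11) encodes band 3, the anion exchanger of the red-cell membrane. It had 2.95, 10.9, 11.4 and 16.1 CPM in wild type, 0.98, 3.58 and 3.86 CPM in heterozygous KO, and 124, 55 and 2.13 CPM in homozygous KO. Homozygous KO 1 exceeded homozygous KO 3 by 58.4-fold. The lowest homozygous KO library lay below all 4 wild types and within the range of heterozygous KO.

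Ank1 (ENSMUSG00000031543, chromosome 8) encodes ankyrin, which ties band 3 to the spectrin skeleton under the membrane. Its levels were 0.172, 0.313, 0.664 and 0.641 CPM in wild type, 0.16, 0.356 and 0.349 CPM in heterozygous KO, and 16.4, 7.89 and 0.166 CPM in homozygous KO. In counts, homozygous KO 1 and 2 had 1891 and 807 and homozygous KO 3 had 15. The jump within homozygous KO, 98.7-fold, is what this gene was chosen for. The microRNA gene Mir486 lies within Ank1 and was at 0 in every library but wild type 4, where it had 0.0121 CPM.

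Ermap (ENSMUSG00000028644, chromosome 4) encodes an erythroid membrane protein that carries the Scianna blood group. It had 0.0982, 0.193, 0.169 and 0.302 CPM in wild type, 0.11, 0.335 and 0.174 CPM in heterozygous KO, and 7.9, 3.6 and 0.0665 CPM in homozygous KO. The value in homozygous KO 3 rested on 6 counts and that in wild type 1 on 4. The fold between the highest and lowest homozygous KO library was 119, again the property by which the gene was picked. Of the 7 genes not chosen this way, Slc4a1 had the highest fold within homozygous KO.

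Neighbouring genes of Ank1 and Ermap did not share the jump. Kat6a and Gpat4, on either side of Ank1, ranged from 391 to 442 and from 101 to 109 CPM in homozygous KO. Zfp691 and Svbp, around Ermap, ranged from 4.5 to 6.33 and from 14.3 to 15.7 CPM there.

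Homozygous KO was compared with wild type to ask how loss of both Usp7 alleles changed these genes. Klf1 rose from a mean of 0.257 ± 0.0952 CPM (SD, n = 4) in wild type to 1.59 ± 0.895 CPM (SD, n = 3). This was a log2 fold change of 2.63 (SE 0.47, adjusted p = 0.00203 in edgeR's quasi-likelihood test, adjusted over all features). It was the only call among the 7 genes tested, whereas 25.8% of all features were called, 12.5% as higher and 13.2% as lower. Slc4a1 had a log2 fold change of 2.54 (SE 0.92, adjusted p = 0.0643 in edgeR). The globin genes and Alas2 had log2 fold changes of 0.33 to 0.8 with standard errors of 0.6 to 0.7, within the spread between animals. Without homozygous KO 3, Slc4a1 passed at 3.11 (adjusted p = 0.00439 in edgeR), and the count of calls went from 1 to 2. Klf1 stayed past the threshold with each library left out in turn, at 2.16 to 3. Fits for Ank1 and Ermap gave 4.11 and 4.28, as a description.

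The heterozygous KO was compared with wild type to ask what loss of 1 allele did. The 4 globin genes had log2 fold changes of -1.31 to -1.16 (SE 0.68 to 0.73), Alas2 -1.18 (SE 0.63) and Slc4a1 -1.9 (SE 0.99). None of the 9 genes passed, with adjusted p from 0.734 to 0.995 in edgeR and unadjusted p of 0.081 or more. Over all features 3 were called, or 0.0154%, while 1421 had an unadjusted p under 0.05 in edgeR and DESeq2 called 58. All 3 heterozygous KO libraries lay below wild types 2, 3 and 4 for each of the 4 globin genes, Alas2 and Slc4a1. Against wild type 1, heterozygous KO 1 was lower and heterozygous KO 2 and 3 were higher for these 6 genes. Klf1, Ank1 and Ermap had log2 fold changes of 0.22 (SE 0.49), -0.72 (SE 1.05) and 0.06 (SE 1.1).

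Between homozygous and heterozygous KO, Klf1 and Slc4a1 were called higher. Their log2 fold changes were 2.41 (SE 0.5, adjusted p = 0.00675 in edgeR) and 4.43 (SE 1.11, adjusted p = 0.0188 in edgeR). These were 2 of 7 genes tested, beside 17.1% of all features called, 7.63% as higher and 9.5% as lower. The Slc4a1 call was lost, at adjusted p = 0.0502 to 0.0734 in edgeR, when homozygous KO 1 or any heterozygous KO library was left out. It was also lost with only the libraries of these 2 groups in the fit (adjusted p = 0.0515 in edgeR). The globin genes and Alas2 had log2 fold changes of 1.6 to 2.11 (adjusted p = 0.0825 to 0.199 in edgeR). Without homozygous KO 3, all 4 globin genes and Alas2 were called as well, at 2.11 to 2.61 (adjusted p = 0.00798 to 0.0397 in edgeR), which makes 7 of 7. This comparison shares its homozygous KO libraries with the first.

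**Figure D2:**
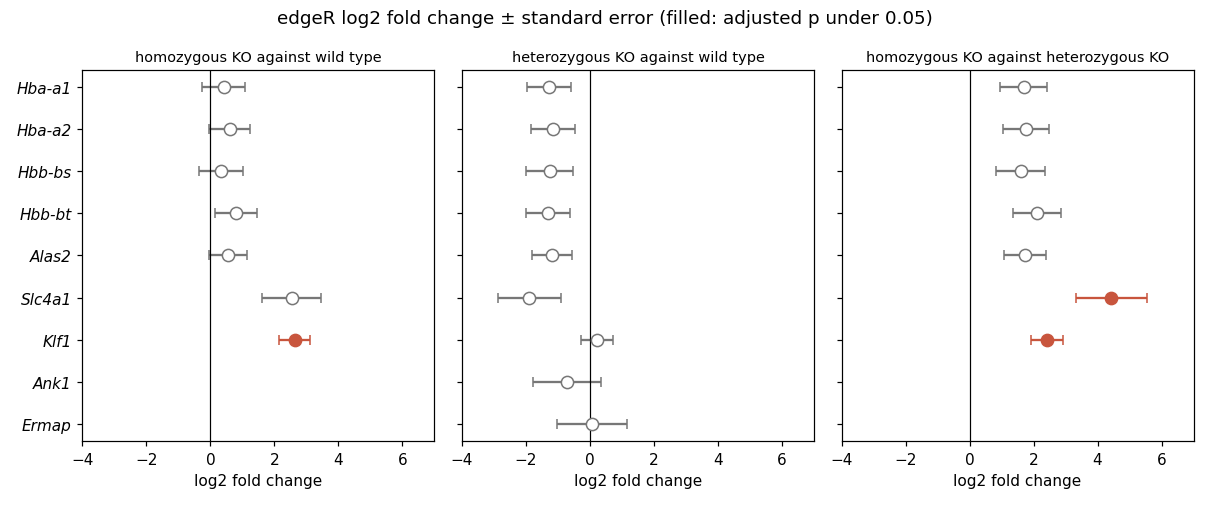
Log2 fold change (x axis) of each gene in the 3 comparisons, with the standard error of edgeR's fit as bars; filled points passed an adjusted p under 0.05. Ank1 and Ermap are drawn only for heterozygous KO against wild type, and Klf1 is filled in both comparisons with homozygous KO, at 2.63 and 2.41.

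Animal numbers in the sample titles fall into 2 runs, 44 to 51 and 56 to 63, and each group has animals in both. No member was called for the run, where 6.77% of all features were, 3.45% as higher and 3.31% as lower in the second. Homozygous KO 1 stands in the first run and homozygous KO 2 and 3 in the second. Against the wild types of its own run Klf1 was higher by 3.29 on the log2 scale in the first run (1 homozygous KO against 3 wild types) and by 1.78 in the second (2 against 1). For Slc4a1 these differences were 4.11 and -0.57, and for Hbb-bs 1.3 and -1.53. Each of these differences has a side with 1 library. In the second run homozygous KO 2 was above wild type 4 and homozygous KO 3 below it for both Hbb-bs and Slc4a1, so a part of the run was not tested. For Klf1 both were above wild type 4.

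Ratios to Hbb-bs within a library were compared next. Counts were not corrected for gene length, so only changes of a ratio between libraries are read. Hba-a1 over Hbb-bs lay between 0.475 and 0.57 in all 10 libraries, a range of 1.2-fold, although Hbb-bs itself varied by more than 10-fold. Alas2 gave 47.1 to 84.7 counts per 1000 Hbb-bs counts, a range of 1.8-fold. These 3 genes rose and fell almost in proportion across animals of every genotype.

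Slc4a1 did not keep such a proportion. It gave 128, 48.3 and 20.1 counts per 1000 Hbb-bs counts in homozygous KO 1, 2 and 3, but 16.1 to 20.4 in wild type and 9.52 to 12.3 in heterozygous KO. The ratios of Ank1 and Ermap in homozygous KO partly restate the jump for which these genes were picked and support nothing. Ank1 gave 16.9, 6.94 and 1.57 in homozygous KO, 0.586 to 1.07 in wild type and 1.12 to 1.55 in heterozygous KO. Ermap gave 8.14, 3.16 and 0.627 in homozygous KO, 0.272 to 0.536 in wild type and 0.558 to 1.07 in heterozygous KO. The CPM of both genes overlapped between heterozygous KO and wild type, while mean Hbb-bs was 244 CPM in heterozygous KO and 585 CPM in wild type. The ratios of both genes rested on 4 to 59 counts in wild type and were not tested. For Ermap the range of heterozygous KO covered homozygous KO 3.

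Klf1 followed yet another order. It gave 2.54, 1.44 and 6.38 counts per 1000 Hbb-bs counts in homozygous KO, 0.27 to 2.01 in wild type and 0.558 to 4.18 in heterozygous KO. The highest ratio was that of homozygous KO 3 and the next that of heterozygous KO 1, which were the 2 libraries with the fewest Hbb-bs CPM. The groups overlapped.

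**Figure D3:**
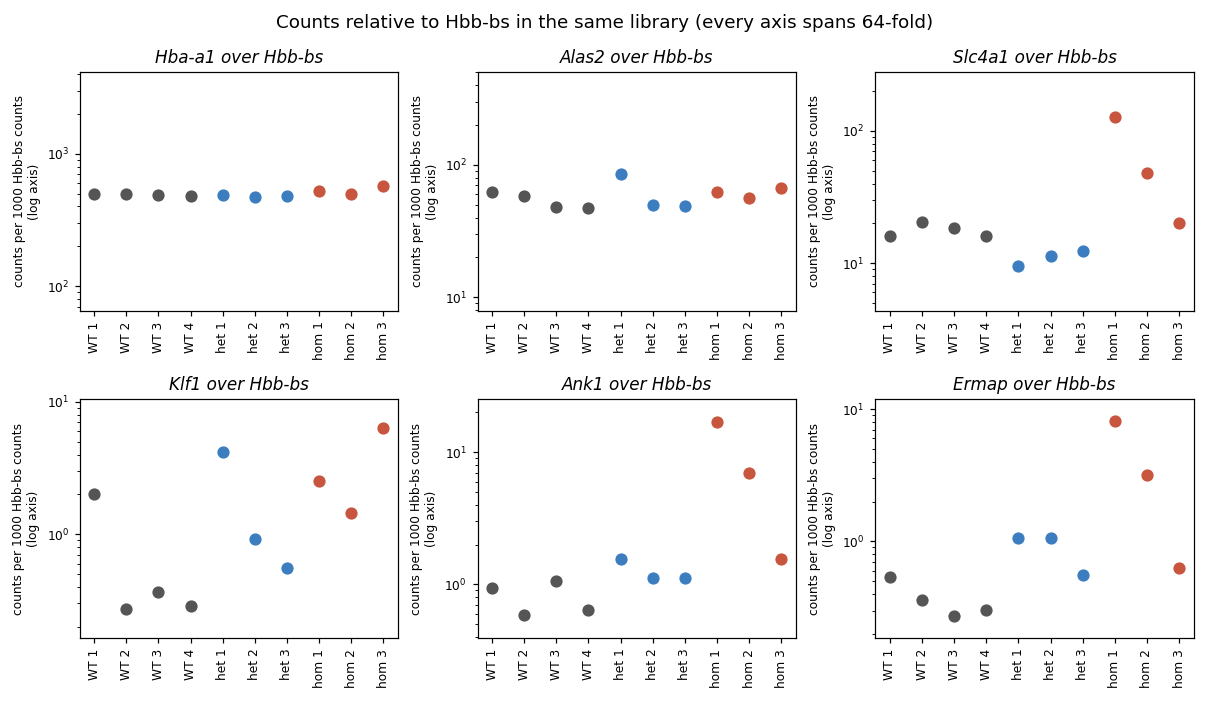
Counts of 6 genes per 1000 counts of Hbb-bs in the same library (log axes, each spanning 64-fold), by library. Hba-a1 and Alas2 stay within 1.2-fold and 1.8-fold over the 10 libraries, while Slc4a1, Ank1 and Ermap peak in homozygous KO 1 at 128, 16.9 and 8.14.

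Within the globin pairs, the share of the second gene differed. Hbb-bs over Hbb-bt was 3.89 to 4.44 in homozygous KO, 5.75 to 6.06 in heterozygous KO and 5.07 to 6.31 in wild type, so that homozygous KO did not overlap the other groups. Hba-a1 over Hba-a2 was 2.2 to 2.5 in homozygous KO and 2.65 to 2.95 in wild type. In an exact two-sided permutation test of log2 ratios both gave p = 0.0571 for homozygous KO against wild type, the smallest that 3 against 4 libraries allow. For 3 against 3 libraries the smallest p of this test is 0.1. Neither limit lies under the threshold for calls, even before adjustment, so none of the 18 ratio tests made could pass. Their smallest adjusted p of 0.229 therefore does not decide whether either ratio differed. What remains is the description that homozygous KO and wild type did not overlap in either ratio. The uncertain split of reads within each pair applies to these ratios.

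Correlations between the 9 genes over the 10 libraries, on the log2 CPM scale, are given as a description. They lay between 0.978 and 0.998 among the globin genes and Alas2 and at 0.251 to 0.396 for Klf1 with the globin genes and Alas2. Slc4a1 stood between, at 0.91 to 0.964 with the globin genes and Alas2 and at 0.934 with Ank1. Ank1 and Ermap correlated at 0.979, which follows from their being picked for the same jump. Homozygous KO 1 and 2 are the farthest points for Klf1, Ank1 and Ermap, so that their correlations rest largely on these libraries.

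Among 10751 genes compared, those most like the mean of the 4 globin genes included Ints12 (r = 0.941), Fam214b (0.924), Tent5c (0.894) and Gpx1 (0.88). Without the 2 libraries farthest from the median, homozygous KO 3 and heterozygous KO 1, r was 0.93 for Ints12 and 0.9 for Tent5c. Tent5c ran from 9.47 CPM in homozygous KO 3 to 78.2 CPM in homozygous KO 1. The closest to Ank1 were Specc1 (r = 0.971), Car2 (0.968), Tmcc2 (0.955), Fech (0.953) and Slc25a39 (0.951). Ermap had Specc1 (0.963), Tpi1 (0.96), Car2 (0.957), Tmcc2 (0.957) and Pkm (0.944). Without homozygous KO 1 and 2, r was 0.57 to 0.89 for the genes named with Ank1 and 0.52 to 0.82 for those named with Ermap, lowest for Tmcc2 and highest for Specc1 in both. Car2, a carbonic anhydrase of red cells, had 45.1 and 23.2 CPM in homozygous KO 1 and 2 and 2.22 to 8.2 CPM in the other 8 libraries. Car1, another on the same list, had at most 3 counts in any library.

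Klf1 was most like Ints6 (r = 0.951), Metrn (0.946), Mtr (0.946), Dis3l (0.945) and Gxylt1 (0.943), none of which is on the erythroid lists. Ints6 ranged only from 54.5 to 65.1 CPM over the 10 libraries.

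Other genes of red-cell formation came from 4 lists, which together held 91 tested genes outside the 9. Of these, 27 (29.7%) were called higher and 7 (7.69%) lower in homozygous KO against wild type, beside the shares of all features given above. Their median log2 fold change was 0.22, and that over all tested features was -0.015. The 27 include Tmcc2, Sox6, Tal1 and Ypel4, whose single tests are withheld below because of their homozygous KO values. Add2, also among the 27, had at most 0.145 CPM in wild type. The count is therefore a description. Without homozygous KO 1 the genes called higher against wild type were 17, and without homozygous KO 3 they were 42. They were 11 with wild types 1 and 2 as the only controls and 9 with wild types 3 and 4. In homozygous against heterozygous KO 32 were higher and 5 lower, beside 7.63% and 9.5% of all features. The 32 became 13 or 14 without homozygous KO 1 or any 1 heterozygous KO library, and 17 with only these 2 groups in the fit. In heterozygous KO against wild type none was called by edgeR. Of the 91 genes, 54 had a mean of at least 10 CPM, and which cells of the thymus express them was not tested.

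Haem synthesis and iron supply had 6 of 22 genes called higher in homozygous KO against wild type and none lower. Alad and Abcb6, an enzyme and a transporter of the haem pathway, had log2 fold changes of 0.5 (SE 0.09) and 0.55 (SE 0.11). The iron transporter gene Slc11a2 and the ferritin gene Fth1 both rose by 0.36. The Slc11a2 call was lost with wild types 3 and 4 as the only controls (adjusted p = 0.0581 in edgeR) and with library totals alone (0.0525). These 4 were named for the smallest p of their list, so the separation of their values from wild type adds no support. Alad stood at 14, 13.8 and 12.7 CPM in homozygous KO and at 9.04 to 10.4 CPM in wild type. Tfrc, the transferrin receptor gene, had a log2 fold change of -0.14 (adjusted p = 0.47 in edgeR). Against heterozygous KO 9 of 22 were higher, among them the mitochondrial iron importer Slc25a37 at 0.61 (SE 0.14), a call lost without heterozygous KO 1 (adjusted p = 0.0535 in edgeR).

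The red-cell membrane and skeleton list had 9 of 27 genes higher and 2 lower. Aqp1, a water channel, rose by 1.97 (SE 0.43), with 4.76, 9.88 and 2.29 CPM in homozygous KO against 1.09 to 2.14 CPM in wild type. The call was lost with wild types 1 and 2 as the only controls (adjusted p = 0.0703 in edgeR). Mpp1 rose by 0.34. The adducin gene Add3 and the urea transporter gene Slc14a1 fell by 0.67 and 0.86 on the log2 scale. Among other members, Tmcc2 had 71, 15.8 and 0.898 CPM in homozygous KO and 1.38 to 2.7 CPM in wild type. It was picked after its values were seen, so no test is given, although its call is among the 9. Rhag, which encodes a red-cell ammonia channel, had 3 counts or fewer in every wild type. Its homozygous KO values were 3.2, 1.69 and 0.0111 CPM, a mean at least 22.2-fold higher than the limit of 3 counts per library. That mean rested on homozygous KO 1 and 2, since homozygous KO 3 was under the limit. Rhag did not pass the filter on low counts and was also picked after its values were seen, so the fold is a description.

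Erythroid transcription factors went in both directions, with 6 of 19 genes higher and 2 lower. Zfpm1, the cofactor FOG1 of GATA1, rose by 0.81 (SE 0.06), and Epor, the erythropoietin receptor, by 1.27 (SE 0.25). Epor had 1.84, 0.968 and 1.35 CPM in homozygous KO and 0.481 to 0.653 CPM in wild type, and its call was lost with wild types 3 and 4 as the only controls (adjusted p = 0.0504 in edgeR). Bcl11a, a repressor of embryonic globin genes that is also used by lymphoid progenitors, fell by 3.16 on the log2 scale (SE 0.23). Its mean was 6.05 ± 1.17 CPM (SD, n = 4) in wild type and 0.679 ± 0.141 CPM (SD, n = 3) in homozygous KO. Gfi1b, a repressor of erythroid and megakaryocytic cells, fell by 2.94 (SE 0.56). Gata1 was not called, at 0.25 (SE 0.28, adjusted p = 0.54 in edgeR). Sox6 and Tal1, both named for their homozygous KO values, had 5.48, 2.05 and 0.0776 CPM and 3.55, 1.39 and 0.266 CPM in homozygous KO 1, 2 and 3, with no test for that reason. The calls of Sox6 and Tal1 are among the 6.

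Red-cell enzymes and late maturation genes had 6 of 23 higher and 3 lower. Ube2o, a ubiquitin ligase that clears proteins in reticulocytes, rose by 0.61 (SE 0.11). Ypel4 had 6.01, 1.93 and 0.144 CPM in homozygous KO and at most 0.121 CPM in the wild types, 2 of which were at 0. It passed the filter on low counts only with the homozygous KO libraries, where it is high, so no test is given, although its call is among the 6. Alox15 and Slc43a1 fell by 1.53 and 0.43 on the log2 scale. Both calls were lost with wild types 3 and 4 as the only controls (adjusted p = 0.0516 and 0.116 in edgeR), and that of Alox15 also with wild types 1 and 2 (0.0627). Alox15 had 0.295, 0.636 and 0.233 CPM in homozygous KO and 0.909 to 1.26 CPM in wild type.

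The split within homozygous KO was counted over the lists. For 42 of the 91 genes (46.2%) homozygous KO 1 and 2 were the 2 highest libraries, beside 1331 of all 19511 features (6.82%). Among the 7 genes chosen by function, this held for all but Hbb-bs. Both libraries were at least 4-fold above every other library, at 0.5 CPM or more, for 6 of the 91 (Add2, Kel, Tmcc2, Sox6, Trim10 and Ypel4) and for 13 features in all, which include Ank1 and Ermap. This criterion was set after the values were seen and carries no test.

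**Figure D4:**
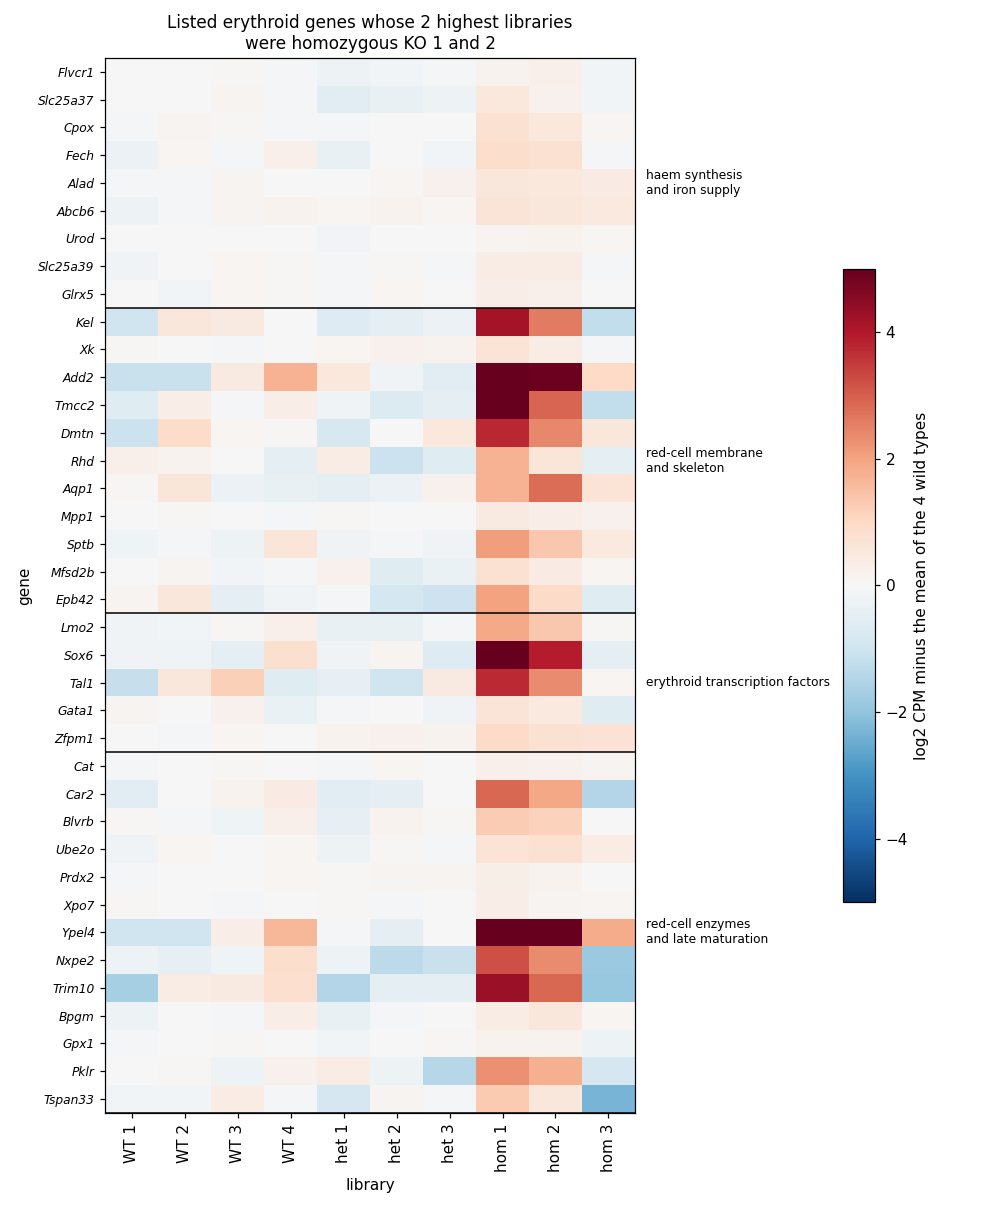
Log2 CPM minus the mean of the 4 wild types (colour, limited to 5 either way) for 38 of the 42 listed genes whose 2 highest libraries were homozygous KO 1 and 2, by library. The rows of Kel, Add2, Tmcc2, Sox6, Ypel4 and Trim10 have their strongest colour in homozygous KO 1 and 2, and homozygous KO 3 is below the wild-type mean in 17 of the 38 rows.

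Markers of other blood cells moved in other orders. The counts of calls below stand beside 12.5% of all features called higher and 13.2% called lower in homozygous KO against wild type. Neutrophil granule genes had 10 of 13 tested genes higher in homozygous KO against wild type, and their summed level was 61.5, 334 and 165 CPM in homozygous KO 1, 2 and 3, 11 to 27.3 CPM in wild type and 10 to 15.3 CPM in heterozygous KO. Homozygous KO 1, the highest of its group for Slc4a1, was the lowest of its group for these. Macrophage markers had 11 of 14 genes lower and 2 higher, with sums of 45.8 to 54.9 CPM in homozygous KO and 82.5 to 108 CPM in wild type. Megakaryocyte and platelet markers summed to 12.2 to 15.9 CPM in homozygous KO and 32.4 to 50.6 CPM in wild type, with 3 of 9 genes lower and 1 higher. Most of the fall in this sum was Itgb3, at a mean of 27.9 CPM in wild type and 3.03 CPM in homozygous KO. Gp1ba, the next highest in wild type, had means of 5.38 and 5.28 CPM. The median log2 fold change of the 9 genes was -0.62. Skeletal muscle markers, at 33.2 to 44.9 CPM in all libraries, had 1 of 8 genes higher, no more than the share of all features. Thymocyte markers had 2 of 14 genes higher and 2 lower, both near the shares of all features. They summed to 13800 to 14100 CPM in homozygous KO and 15300 to 17100 CPM in wild type. Rag1 alone went from a mean of 6300 CPM in wild type to 3490 CPM in homozygous KO. The median log2 fold change of the 14 genes was -0.04, so the lower sum does not describe the list as a whole. The part of these cells in the erythroid values was not tested.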

How the data were processed

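Total RNA of the thymus was depleted of ribosomal RNA and stranded libraries were sequenced, per the labels. The authors deposited 1 table of raw read counts per feature, without normalization, in which each column is 1 animal. The submitters' processing notes name CASAVA, STAR 2.4.1d, HTSeq 0.6.1p1 and the mouse build NCBIM37 (mm9). The annotation release, the strand setting and the treatment of reads with several placements are not given in the sources used here. Symbols came from gene identifiers, and overlaps from GENCODE on GRCm38, another build.

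Groups were taken from the sample titles, although the count columns of wild types 3 and 4 add the word het to wt. Features were filtered by filterByExpr, scaled by TMM and tested with edgeR 4.0.16 (R 4.3.3; glmQLFit and glmQLFTest) in 1 fit over all 10 libraries, with calls at a p under 0.05 after Benjamini-Hochberg adjustment over 19511 features. The standard error is the absolute log2 fold change divided by the square root of the test's F. Log2 CPM used a prior count of 2. DESeq2 1.42.0, other scalings, other sets of controls, the replicate number, the run of animal numbers and leaving out each library were alternatives. The fit was tested on simulated data. Nothing says that animals of a group came from separate litters, so p-values measure the spread between these animals.

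The 9 genes and the lists were chosen with earlier results of these data known. Named were all 9 genes, at most 4 called genes per list and comparison, the 5 most alike by Pearson r (average log2 CPM of at least 1), neighbours of Ank1 and Ermap, and Usp7. Tfrc, Tmcc2, Rhag, Gata1, Sox6 and Tal1, the embryonic globin genes and genes named in counts were added after their values were seen. Ahsp and Rhex were not matched. Some genes that these rules select are not reported here.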

Additional observations from a re-analysis of the deposited data

Results flagged for a closer look

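In the comparison of the 2 runs of animal numbers, Slc2a1 (a glucose transporter gene of the membrane list) and Klf13 were called higher in the second run. Their log2 fold changes were 0.41 and 0.29 (adjusted p = 0.00644 and 0.0103 in edgeR). Wild type 4, the 1 wild type of that run, stood far from the other 3 in both: its gap to the next library took 0.892 of the range of the 4 wild types for Slc2a1 (28.4 against 19.2 to 20.1 CPM) and 0.886 for Klf13 (820 against 683 to 698 CPM). Both exceed Dixon's critical value for 4 samples, which chance alone passes in about 1 of 20 groups. Slc2a1 and Klf13 were checked because they were called between the runs. Such a call favours a deviant wild type 4, so this rate does not hold for them. The check was made on the 9 genes, the called and most alike genes named by rule, and Usp7. Some passes by chance are thus to be reckoned with. Without wild type 4 both calls were lost, at 0.35 and 0.31 (adjusted p = 0.0667 and 0.0514 in edgeR), as they were with the replicate number as a block (adjusted p = 0.75 and 0.714 in edgeR). None of the 9 genes had such a wild type.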

How the results depend on the processing

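Of the 7 genes, 1 was called for homozygous KO over wild type, and 1 to 2 with each library left out, the 2 without homozygous KO 3. Against heterozygous KO it was 2, and 1 to 7 with each library left out. It was 1 with only these 2 groups in the fit, and 1 when the replicate number entered as a block. In heterozygous KO against wild type, and between the runs of animal numbers, no member was called under any alternative run. Klf1 kept its calls in both comparisons with homozygous KO under every alternative.

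Some members changed direction, none of them called. For homozygous KO against wild type, Hba-a1 and Hbb-bs went to -0.05 and -0.14 with wild types 3 and 4 as the only controls (titles with 1 wt word, columns named wt and het), and Hbb-bs to -0.11 without homozygous KO 2 (range with each library left out -0.11 to 0.85). For heterozygous KO against wild type, Klf1 and Ermap went to -0.62 and -1.90 with Xist as a covariate and Ank1 to 0.24 with wild types 1 and 2 alone. Klf1 went to -0.12 without heterozygous KO 1 (range -0.12 to 0.49), and Ermap (range -0.48 to 0.4) to -0.19 with wild types 3 and 4 alone, -0.48 without heterozygous KO 2, -0.12 without wild type 1 and -0.03 without wild type 3. Between the runs of animal numbers, Slc4a1 went from -0.01 to 0.11 in DESeq2, 0.06 with Xist, 1.34, 0.10 and 0.59 without homozygous KO 1, 2 and 3, and 0.00 and 0.01 without wild types 2 and 3 (range -0.77 to 1.34). Alas2 went to -0.05 without wild type 4 (range -0.05 to 0.91).

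With the replicate block the run coefficients of Hba-a1, Hba-a2, Hbb-bs, Hbb-bt and Alas2 were -1.56, -1.49, -1.53, -1.75 and -1.67. The replicate numbers did not pair the samples: same-numbered libraries deviated together with correlations of -0.104 to 0.225, and 3 of 9 were over 0.1. Under the block Slc4a1 against heterozygous KO had adjusted p = 0.0708 in edgeR, and the listed genes called higher in that comparison went from 32 to 21; with only the 2 groups compared they were 17, and without any 1 heterozygous KO library or homozygous KO 1 they were 13 to 14. Against wild type they went from 27 to 12 with Xist, and to 11 and 9 with wild types 1 and 2 or 3 and 4 alone. Over all features, calls went from 5030 to 2670 with wild types 3 and 4 alone. In heterozygous KO against wild type the 3 calls became 58 in DESeq2, 5 with the block and 6 without wild type 4. Homozygous against heterozygous KO had 2153 in place of 3342 calls without heterozygous KO 3. Between runs 1320 became 2269 in DESeq2, 10 with the block, 756 with Xist and 365 to 778 without homozygous KO 1, heterozygous KO 2 or 3, or wild type 4. Scaling by library totals alone moved the median of all features to -0.109 in homozygous KO against wild type. The causes were not tested. Klf1, Ank1 and Ermap had under 100 counts outside homozygous KO 1 and 2, which limits their precision.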
